A study of Mus musculus with 6 samples.

Results

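Aminoacyl-tRNA synthetases are the enzymes that load each tRNA with its amino acid before translation. All 36 synthetase genes searched for by gene symbol were found in the raw count table, which lists 54532 genes. Of these, 20 encode cytosolic enzymes and 16, whose symbols end in 2, encode mitochondrial enzymes. They were measured in 6 RNA-seq libraries of mouse hearts at embryonic day 9.5 (E9.5), 3 from *Smyd1-KO* and 3 from wild-type (WT) embryos, with no treatment. SMYD1 is a histone methyltransferase of heart and skeletal muscle. The knockout was present in the whole embryo, and the mutants came from crosses of *Smyd1+/-* mice. Per the labels RNA was extracted from individual hearts, so *P* values measure the spread between embryos. No cells were sorted, and in such bulk samples fewer cells of a type and less RNA per cell cannot be told apart.

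Synthetases form 2 structural classes, I and II, which carry unrelated catalytic folds. In the cytosol several of them, together with the scaffold proteins AIMP1, AIMP2 and EEF1E1, form the multisynthetase complex, in which the bifunctional enzyme EPRS charges both glutamate and proline tRNAs. *Farsa* and *Farsb* encode the subunits of a single enzyme. *Gars* and *Kars* each encode both the cytosolic and the mitochondrial form, and mitochondria have no glutaminyl enzyme of their own, since glutaminyl-tRNA is made there from glutamyl-tRNA by the amidotransferase encoded by *Qrsl1*, *Gatb* and *Gatc*. Mitochondrial synthetases are encoded in the nucleus and serve the translation of the few proteins of the mitochondrial genome. Several cytosolic synthetase genes are known targets of ATF4, the transcription factor that is translated when the kinases of the integrated stress response (ISR), such as EIF2AK4, sense uncharged tRNA or other stress.

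The response element bound by ATF4 with a C/EBP partner was searched for as TGATGNAA on both strands, from 250 bases before to 50 bases after the RefSeq transcription start (GRCm38.p6). It was found in 1304 of 32851 promoters (3.97%). Among the synthetase promoters that could be looked up by gene symbol, 5 of 12 cytosolic ones (41.7%) and 0 of 14 mitochondrial ones held it. The 5 genes were *Gars*, *Aars*, *Tars*, *Iars* and *Yars*. The stretches below show the matches that lie before the start in *Gars*, *Tars* and *Asns*, the asparagine synthetase gene and a standard ATF4 target, then the last 120 bases before the start of *Sars* and *Mars2*, in which no match was found. Capitals mark the match, and each stretch reads 5′ to 3′ on the strand of the gene.
*Gars*, plus strand, chr6:55037931-55038000: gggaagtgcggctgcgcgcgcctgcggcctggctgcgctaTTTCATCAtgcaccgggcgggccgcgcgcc
*Tars*, minus strand, chr15:11399659-11399728: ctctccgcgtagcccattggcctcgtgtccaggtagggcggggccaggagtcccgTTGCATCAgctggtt
*Asns*, minus strand, chr6:7693214-7693243: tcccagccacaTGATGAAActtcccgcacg
*Sars*, minus strand, chr3:108445260-108445379: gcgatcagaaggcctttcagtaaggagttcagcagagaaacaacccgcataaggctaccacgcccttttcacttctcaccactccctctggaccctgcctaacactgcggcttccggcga
*Mars2*, plus strand, chr1:55237057-55237176: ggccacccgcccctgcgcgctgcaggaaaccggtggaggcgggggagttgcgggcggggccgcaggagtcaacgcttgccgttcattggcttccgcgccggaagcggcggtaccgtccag

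The match in *Gars* starts 30 bases before the RefSeq start, in *Tars* 15 bases and in *Asns* 23 bases. The only matches in *Iars* and *Yars* start at bases 8 and 4 after it. The printed *Asns* stretch lies within an exon of a longer GENCODE transcript. *Cars*, *Hars*, *Lars*, *Mars*, *Nars*, *Rars*, *Vars*, *Wars*, *Hars2* and *Pars2* were not found under these symbols, so their promoters were not searched. A match describes letters only, and says nothing of whether a factor was bound in these hearts.

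*Smyd1* mRNA was the check of the labels. It stood at 101, 222 and 206 CPM (counts scaled to library size with TMM factors) in *Smyd1-KO* hearts 1 to 3 and at 414, 379 and 270 CPM in WT hearts 1 to 3. Every mutant heart lay below every WT heart, with a log2 fold change of -1.01 (SE 0.30) and an adjusted *P* of 0.0973 from edgeR and 0.00538 from DESeq2. Total counts ran from 48627825 to 64217529 per heart. Of 16 cardiomyocyte markers, 0 passed the thresholds for calling a gene that are given below (1 with DESeq2, 2 at an unadjusted *P* under 0.05 in edgeR), and their summed level ran from 10905 to 22910 CPM in *Smyd1-KO* and from 14467 to 24494 CPM in WT hearts, lowest in *Smyd1-KO* heart 1. Over all genes edgeR called 2.86% higher and 1.42% lower, DESeq2 5.77% and 3.19%, and 13.1% and 11.9% had an unadjusted *P* under 0.05 in edgeR. Erythroid markers fell in 4 of 13 genes and rose in 0 (9 and 0 with DESeq2, 11 and 1 at an unadjusted *P* under 0.05), with sums of 224 to 601 against 924 to 1218 CPM. Epicardial markers rose in 1 of 8 genes and fell in 0 (4 and 0 with DESeq2, 4 and 0 unadjusted), with sums of 299 to 545 against 180 to 219 CPM. Endothelial markers rose in 1 of 12 and fell in 0 (2 and 2 with DESeq2, 5 and 2 unadjusted), with sums of 883 to 1353 against 832 to 1014 CPM. Of 8 smooth muscle markers 0 were called (1 with DESeq2, 3 at an unadjusted *P* under 0.05), with sums of 1294 to 2384 against 1670 to 3008 CPM. Of 8 macrophage markers only *Csf1r* had enough counts for a test, at 0.494 to 1.1 against 0.390 to 0.671 CPM, and *Adgre1* and *Ptprc* had 0 counts in 3 and 2 hearts. The part of these cell types in the synthetase values was not tested. *Xist* was under 3 CPM in *Smyd1-KO* heart 1 and WT heart 1 and between 766 and 939 CPM in the other 4, so each genotype had 1 heart of low and 2 of high *Xist*.

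All 36 synthetases were detected in every heart and passed the filter on low counts. The cytosolic genes had between 4017 and 26554 counts in a heart and the mitochondrial genes between 643 and 18278. Levels of different genes were compared as CPM per kb of exon (GENCODE M21). In WT hearts the cytosolic genes ran from 10.5 CPM per kb for *Cars* to 77.8 for *Gars*, with a median of 31.5. The mitochondrial genes ran from 2.06 CPM per kb for *Nars2* to 18.1 for *Lars2*, with a median of 7.87. Cytosolic mRNAs were thus mostly the more abundant, and *Cars* and *Eprs* were the cytosolic genes whose WT mean lay below a mitochondrial one. For *Eprs* the values were close, at 18.0 against 18.1 for *Lars2*, whose WT mean was raised by WT heart 2 (288 CPM, against 142 and 170 CPM in WT hearts 1 and 3). The exonic length joins all annotated exons of a gene, so the values depend on the annotation. The spread between hearts was small for most members, with a median coefficient of variation over the cytosolic genes of 6.17% for WT and 7.39% for *Smyd1-KO*, and over the mitochondrial genes of 5.91% and 6.30%.

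**Figure D1:**
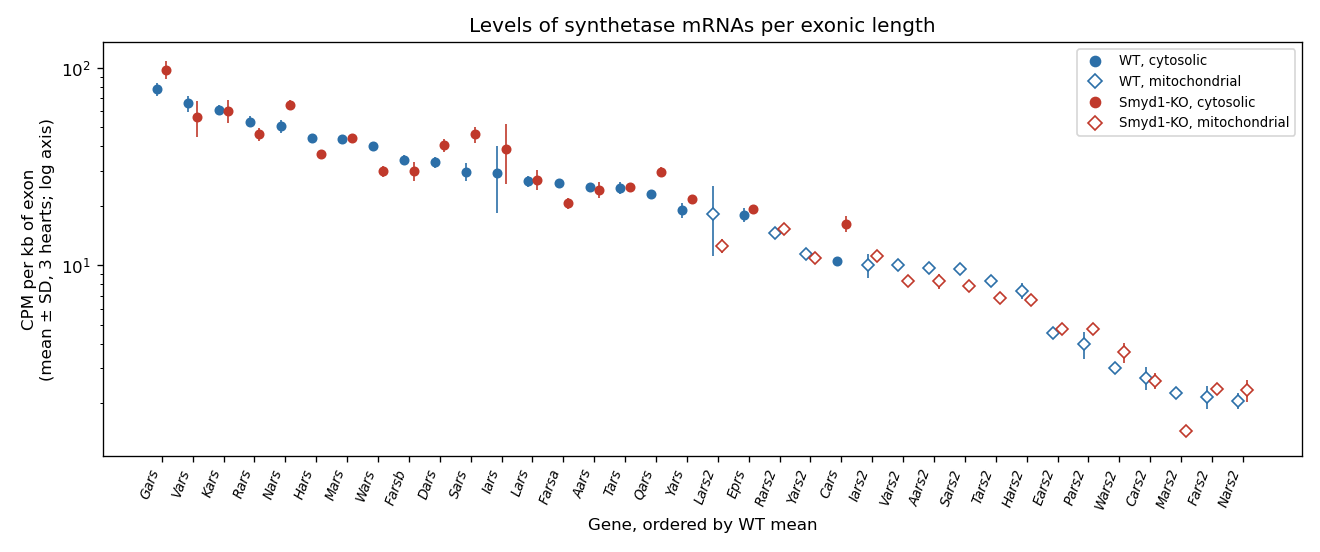
Each synthetase's mRNA level in CPM per kb of exon (log axis, mean ± SD of 3 hearts) for WT (blue) and *Smyd1-KO* (red), with cytosolic genes as filled circles and mitochondrial genes as open diamonds, ordered by the WT mean. WT levels fall from 77.8 for *Gars* to 2.06 for *Nars2*, and the widest error bars belong to *Iars* and *Lars2*.

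The first question was whether cytosolic synthetases differed between the genotypes. A gene was called changed when its adjusted *P* was below 0.05 (edgeR's quasi-likelihood test, Benjamini-Hochberg over 19372 genes) and its log2 fold change was 0.5 or more in either direction. By this rule *Cars* and *Sars*, which encode the cysteinyl and seryl enzymes, rose in *Smyd1-KO* hearts, 0 of the 20 cytosolic genes fell and 18 were not called. The 2 genes are 10.0% of the list, beside 2.86% of all genes called higher and 1.42% called lower. The median log2 fold change of the 20 genes was 0.018, with a range from -0.43 to 0.63, beside a median of -0.0026 over all genes. Of the 20 genes, 12 had a positive and 8 a negative fold change, and at an unadjusted *P* under 0.05 edgeR had 6 higher and 4 lower, beside 13.1% and 11.9% of all genes.

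*Cars* (ENSMUSG00000010755, chromosome 7, 143557230 to 143600090, minus strand, GRCm38) stood at 94.9, 114.0 and 111.5 CPM in *Smyd1-KO* and at 69.9, 68.8 and 67.9 CPM in WT hearts. All mutant hearts were above all WT hearts, and the 3 WT hearts lay close together. The means were 107 ± 10.4 and 68.9 ± 0.985 CPM (SD, n = 3), a rise of 55.1%. The log2 fold change was 0.63 (SE 0.09, 95% interval 0.43 to 0.84) with an adjusted *P* of 0.0136. *Sars* (chromosome 3, 108424865 to 108445209, minus strand) stood at 213, 256 and 241 CPM in *Smyd1-KO* and at 170, 150 and 139 CPM in WT hearts. Again the genotypes did not overlap, and *Smyd1-KO* heart 1 was the lowest mutant for both *Cars* and *Sars*. The means were 236 ± 21.8 and 153 ± 15.7 CPM (SD, n = 3), a rise of 54.4%, with a log2 fold change of 0.63 (SE 0.11, interval 0.37 to 0.88) and an adjusted *P* of 0.0253. Both calls were also made by DESeq2, which called 2 of the 20 cytosolic genes higher and 0 lower, beside 5.77% and 3.19% of all genes. With 1 heart left out the *Cars* call was lost without *Smyd1-KO* heart 2 (adjusted *P* 0.0562), WT heart 2 (0.0858) or WT heart 3 (0.0701), and the *Sars* call without these (0.0917, 0.132 and 0.106) or without *Smyd1-KO* heart 3 (0.0706), while the fold changes stayed between 0.57 and 0.72.

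*Qars* and *Wars*, the glutaminyl and tryptophanyl enzymes, passed the adjusted *P* but not the limit on the fold change. Without that limit 3 of the 20 genes were higher and 1 was lower, beside 3.32% and 2.01% of all genes. *Qars* stood at 205, 196 and 185 CPM in *Smyd1-KO* and at 158, 147 and 146 CPM in WT hearts. The fitted log2 fold change was 0.38 (SE 0.08), at an adjusted *P* of 0.0435. *Wars* stood at 107, 105 and 95.6 CPM in *Smyd1-KO* and at 144, 135 and 137 CPM in WT hearts. On the log2 scale the difference was -0.43 (SE 0.08), at an adjusted *P* of 0.0283. The genotypes did not overlap for either gene, in opposite directions. In the fits that left out 1 heart *Qars* had an adjusted *P* of 0.0551 to 0.183, and *Wars* passed only without *Smyd1-KO* heart 1 (0.0254), with 0.0674 to 0.117 in the other 5. With no filter on low counts *Qars* was at 0.0525. *Farsa*, the catalytic subunit of the phenylalanyl enzyme, stood at 99.6, 92.3 and 87.8 CPM in *Smyd1-KO* and at 122.5, 117 and 115 CPM in WT hearts (log2 fold change -0.34, SE 0.08, adjusted *P* 0.0506). Its partner subunit gene *Farsb* had a log2 fold change of -0.18 (SE 0.10, adjusted *P* 0.302).

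Counted by overlap alone, 7 of the 20 cytosolic genes had every *Smyd1-KO* heart above every WT heart (35.0%, beside 15.9% of all genes), namely *Cars*, *Sars*, *Qars*, *Nars*, *Gars*, *Dars* and *Yars*. In 4 every mutant heart was below every WT heart (beside 15.5%), namely *Wars*, *Farsa*, *Hars* and *Rars*. *Nars* and *Gars*, the asparaginyl and glycyl enzymes, had log2 fold changes of 0.36 (interval 0.15 to 0.58, adjusted *P* 0.0678) and 0.33 (0.07 to 0.58, adjusted *P* 0.119), which did not pass the test.

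**Figure D2:**
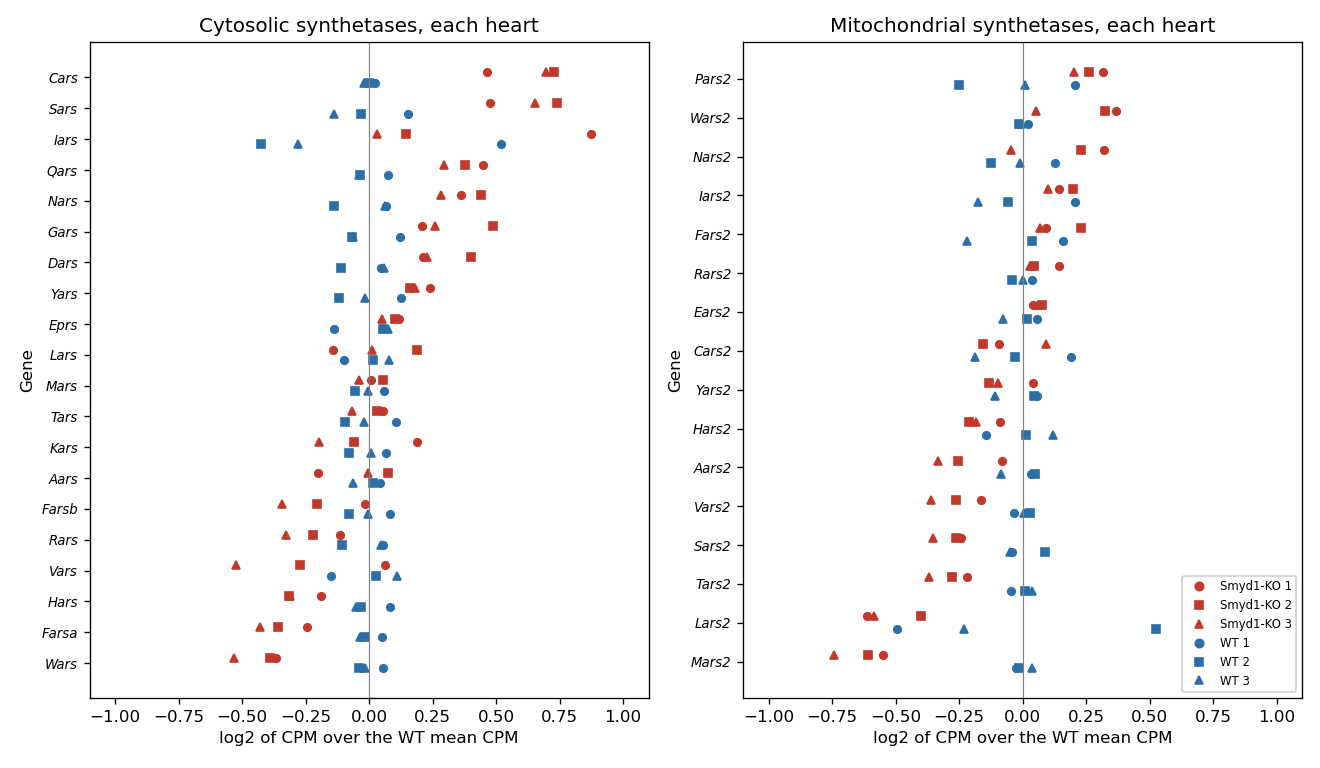
Log2 of each heart's CPM over the WT mean CPM for 20 cytosolic (left) and 16 mitochondrial (right) synthetases, with *Smyd1-KO* hearts in red and WT hearts in blue and the heart number given by the symbol's shape. All 3 red symbols lie to the right of the blue ones for *Cars* and *Sars* and to the left for *Wars* and *Mars2*, while *Iars* is far right in heart 1 of both genotypes and *Lars2* in WT heart 2.

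*Eprs*, the glutamyl-prolyl enzyme and the longest synthetase gene by exon length (18102 bases), stood at 354, 350 and 338 CPM in *Smyd1-KO* and at 297, 339 and 344 CPM in WT hearts. The genotypes overlapped, and the log2 fold change was 0.09 (SE 0.09, interval -0.12 to 0.30, adjusted *P* 0.572). *Mars*, *Tars*, *Kars*, *Lars* and *Aars*, for methionine, threonine, lysine, leucine and alanine, had log2 fold changes between -0.04 and 0.03, and their intervals together ran from -0.28 to 0.27. Over both compartments, 22 of the 31 members that missed the adjusted *P* had a 95% interval that lay wholly within 0.5 on either side of 0, which leaves changes smaller than that undecided.

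*Iars*, the isoleucyl enzyme, had the widest spread of the cytosolic genes. It stood at 283, 171 and 158 CPM in *Smyd1-KO* and at 221, 115 and 127 CPM in WT hearts. Heart 1 was the highest in each genotype, and these 2 hearts were also those of low *Xist*. The log2 fold change was 0.40 (SE 0.31, interval -0.32 to 1.12, adjusted *P* 0.460), and it was 0.41 with an adjusted *P* of 0.0510 with the *Xist* class of the heart as a covariate, an alternative chosen after the values were seen.

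Of the 8 multisynthetase complex genes (*Dars*, *Eprs*, *Iars*, *Kars*, *Lars*, *Mars*, *Qars* and *Rars*) 0 were called by edgeR or DESeq2 and 3 had an unadjusted *P* under 0.05, with log2 fold changes from -0.22 to 0.40 and a median of 0.058. Among the 12 cytosolic genes outside the complex 2 were called higher (16.7%, beside 2.86%) and 0 lower, with a range from -0.43 to 0.63 and a median of -0.017. *Aimp1*, *Aimp2* and *Eef1e1*, the scaffold genes, had log2 fold changes of 0.11 (adjusted *P* 0.50), 0.0075 (0.967) and -0.12 (0.534). By structural class, 1 of 10 class I cytosolic genes was called (*Cars*, median of the class 0.058) and 1 of 10 class II genes (*Sars*, median -0.0036). Each is 10.0% of its class, beside 2.86% of all genes called higher. *Qars*, a class I gene of the complex, passed the adjusted *P* alone, as did *Wars*, a class I gene outside it, in the lower direction. These counts are too small to compare the groups, and no difference between them was tested.

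The next comparison took the mitochondrial enzymes. *Mars2*, the mitochondrial methionyl enzyme, fell in *Smyd1-KO* hearts, 0 of the 16 genes rose and 15 were not called. This is 6.25% of the list, beside 1.42% of all genes called lower. The median log2 fold change was -0.054, with a range from -0.63 to 0.26, and 7 fold changes were positive and 9 negative. At an unadjusted *P* under 0.05 edgeR had 0 higher and 5 lower, beside 13.1% and 11.9% of all genes, and DESeq2 called 0 higher and 1 lower.

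*Mars2* (chromosome 1, 55237177 to 55248470, plus strand) stood at 17.3, 16.6 and 15.1 CPM in *Smyd1-KO* and at 24.9, 25.03 and 26.0 CPM in WT hearts, from 841 to 981 counts and 1481 to 1730 counts. All mutant hearts were lower, and the spread within each genotype was small beside the gap. The means were 16.3 ± 1.11 and 25.3 ± 0.602 CPM (SD, n = 3), a change of -35.4%. The log2 fold change was -0.63 (SE 0.10, interval -0.86 to -0.40) with an adjusted *P* of 0.0184, and DESeq2 also called it lower. The call was lost without *Smyd1-KO* heart 2 (adjusted *P* 0.0749) or 3 (0.0573), and without WT heart 2 (0.102) or 3 (0.0874), with fold changes from -0.67 to -0.58 over the 6 fits that left out 1 heart.

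*Lars2*, the leucyl enzyme, had a log2 fold change of -0.53 (SE 0.25, adjusted *P* 0.232). It stood at 131, 152 and 133 CPM in *Smyd1-KO* and at 142, 288 and 170 CPM in WT hearts. The difference rested largely on WT heart 2, without which the log2 fold change was -0.17 (adjusted *P* 0.513). *Tars2*, for threonine, stood at 49.7, 47.7 and 44.8 CPM in *Smyd1-KO* and at 55.9, 58.1 and 59.2 CPM in WT hearts, which did not overlap, with a log2 fold change of -0.29 (SE 0.07, adjusted *P* 0.0705). *Sars2* and *Vars2* likewise did not overlap between genotypes, at -0.29 (adjusted *P* 0.106) and -0.26 (adjusted *P* 0.101). With *Mars2*, they make 4 genes of 16 in which every mutant heart was below every WT heart (beside 15.5% of all genes).

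*Pars2*, the prolyl enzyme, had the most positive fold change among the mitochondrial genes. It stood at 15.3, 14.7 and 14.1 CPM in *Smyd1-KO* and at 14.1, 10.3 and 12.3 CPM in WT hearts. This is a log2 fold change of 0.26 (SE 0.14, adjusted *P* 0.306). *Wars2* was the only mitochondrial gene with every mutant heart above every WT heart (6.25%, beside 15.9%), at 23.2, 22.5 and 18.7 against 18.3, 17.8 and 17.9 CPM (log2 fold change 0.25, SE 0.11, adjusted *P* 0.219). *Nars2*, *Iars2*, *Fars2*, *Rars2*, *Ears2*, *Cars2*, *Yars2*, *Hars2* and *Aars2* had log2 fold changes from -0.22 to 0.18.

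**Figure D3:**
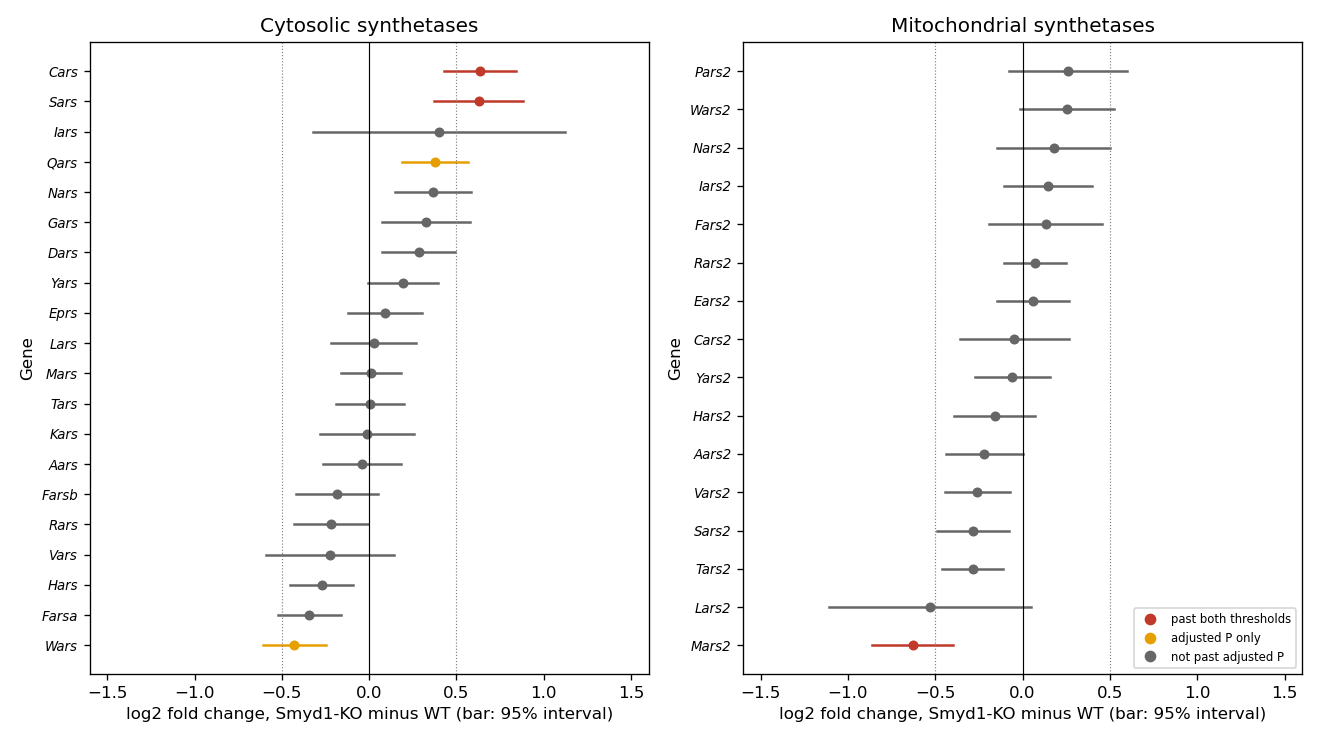
Log2 fold change, *Smyd1-KO* minus WT, with its 95% interval for each cytosolic (left) and mitochondrial (right) synthetase, with dotted lines at -0.5 and 0.5. *Cars* and *Sars* at 0.63 and *Mars2* at -0.63 pass both thresholds (red), *Qars* and *Wars* pass the adjusted *P* only (orange), and the other 31 genes pass neither (grey).

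Summed over the list, cytosolic synthetase mRNA came to 3891, 3828 and 3520 CPM in *Smyd1-KO* and to 3638, 3383 and 3508 CPM in WT hearts, which overlapped, at a ratio of means of 1.07. Mitochondrial synthetase mRNA came to 638, 641 and 600 CPM in *Smyd1-KO* and to 672, 798 and 665 CPM in WT hearts, so that all mutant hearts were lower, at a ratio of 0.880. Without *Lars2* the mitochondrial sums were 507, 489 and 466 against 530, 510 and 495 CPM, which overlapped.

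For 13 amino acids both a cytosolic and a mitochondrial gene were in the table, and the ratio of the pair within a heart does not depend on the scaling between hearts. The ratio of *Sars* to *Sars2* was 7.98, 9.73 and 9.75 in *Smyd1-KO* and 5.56, 4.47 and 4.57 in WT hearts. *Cars* to *Cars2* gave 5.21, 6.54 and 5.40 against 3.16, 3.62 and 3.99. *Mars* to *Mars2* gave 8.69, 9.35 and 9.61 against 6.25, 5.74 and 5.73. These 3 ratios were higher in every mutant heart than in any WT heart. The log2 fold changes of the single genes were 0.63 for *Sars* and -0.29 for *Sars2* (adjusted *P* 0.106, not called), 0.63 for *Cars* and -0.05 for *Cars2* (0.856, not called), and 0.0090 for *Mars* (0.954, not called) and -0.63 for *Mars2*. *Wars* to *Wars2* was lower in every mutant heart, at 4.61, 4.68 and 5.12 against 7.86, 7.55 and 7.63, and *Rars* to *Rars2* was lower too, at 3.58, 3.56 and 3.34 against 4.33, 4.08 and 4.41. *Tars*, *Yars* and *Lars* had higher ratios to their mitochondrial partners in every mutant heart, by 0.30, 0.26 and 0.49 on the log2 scale. The *Lars* difference was 0.20 without WT heart 2, the heart in which *Lars2* was highest. The ratios of the other 5 pairs, for alanine, asparagine, histidine, isoleucine and valine, overlapped between the genotypes. With 3 hearts against 3, a two-sided exact permutation test cannot give a *P* below 0.1, so no pair could pass 0.05 by itself, and no share over all genes exists to set beside these ratios.

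**Figure D4:**
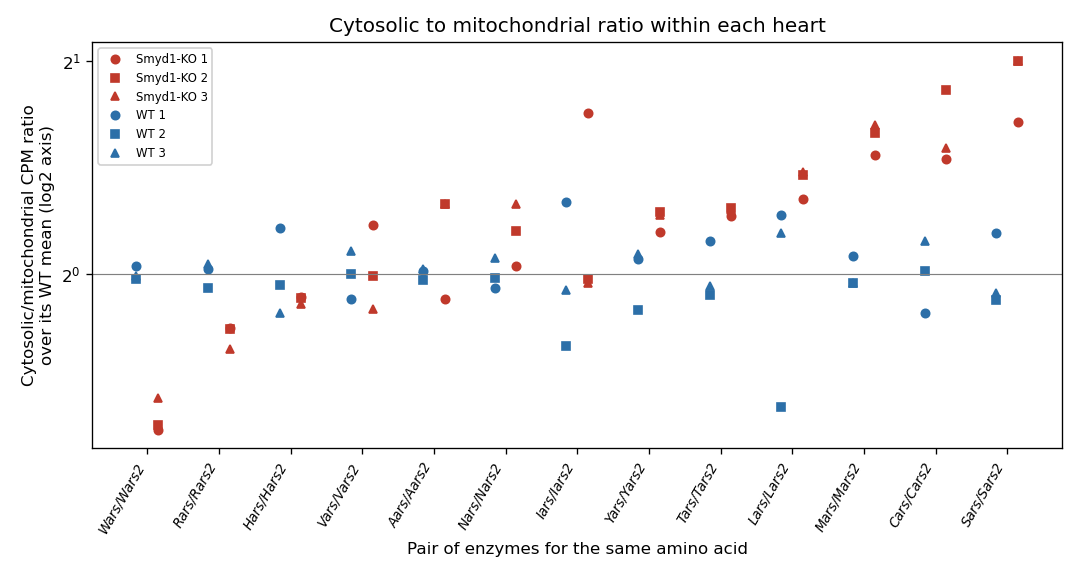
Ratio of cytosolic to mitochondrial CPM for 13 amino acids in each heart, divided by the mean ratio of the WT hearts (log2 axis), with *Smyd1-KO* hearts in red, WT hearts in blue and the heart number given by the symbol's shape. Red symbols lie above the blue ones for *Sars/Sars2*, *Cars/Cars2*, *Mars/Mars2*, *Lars/Lars2*, *Tars/Tars2* and *Yars/Yars2*, and below them for *Wars/Wars2* and *Rars/Rars2*.

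Genes that work beside the synthetases were read from a list of 15 accessory genes of tRNA charging, of which 0 were called higher and 2 lower (13.3%, beside 1.42% of all genes) by edgeR and by DESeq2, and 0 and 3 at an unadjusted *P* under 0.05. *Qrsl1*, the catalytic subunit of the mitochondrial amidotransferase that makes glutaminyl-tRNA, stood at 15.4, 15.5 and 13.2 CPM in *Smyd1-KO* and at 24.7, 22.6 and 23.8 CPM in WT hearts (log2 fold change -0.69, SE 0.11, adjusted *P* 0.0192). *Aarsd1*, an editing protein that clears wrongly charged alanine tRNA, stood at 0.720, 0.846 and 0.736 against 1.49, 1.69 and 2.18 CPM (log2 fold change -1.22, SE 0.23, adjusted *P* 0.0326). Neither gene overlapped between the genotypes, and both calls held in the fit without *Smyd1-KO* heart 1 and were lost in each of the other 5 fits that left out 1 heart, in which the adjusted *P* was at least 0.0565 for *Qrsl1* and 0.0511 for *Aarsd1*. The other subunit genes of the amidotransferase, *Gatb* and *Gatc*, which were named after their values were seen, had log2 fold changes of 0.04 (adjusted *P* 0.867) and -0.31 (0.140).

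The synthetases were then set beside 23 other known targets of ATF4, genes of amino acid synthesis, amino acid transport and stress. Of these, 14 rose (60.9%, beside 2.86% of all genes), 0 fell, and the median log2 fold change was 0.98, against 2 of 20 and 0.018 for the cytosolic synthetases. The list was chosen with earlier results of these data known, so its share of called genes is a description and no independent support. Whether ATF4 or another factor acted on these genes in the hearts was not tested. DESeq2 called 15 higher and 0 lower, at an unadjusted *P* under 0.05 edgeR had 20 higher and 0 lower, and without WT heart 2 it called 7 higher. Their summed level was 2226, 2448 and 2288 CPM in *Smyd1-KO* and 1071, 990 and 1075 CPM in WT hearts. *Slc1a5* alone had a negative log2 fold change (-0.96, SE 0.53, adjusted *P* 0.312), at 53.5, 13.5 and 15.2 against 59.3, 35.1 and 65.3 CPM. It was called lower in the edgeR fit without *Smyd1-KO* heart 1 (log2 fold change -1.89, adjusted *P* 0.0116). *Chac1*, a glutathione-degrading enzyme, stood at 7.51, 21.0 and 17.1 against 0.587, 0.914 and 0.871 CPM (log2 fold change 4.26, SE 0.43, adjusted *P* 0.00464). *Trib3*, a pseudokinase induced by stress, stood at 11.4, 31.7 and 29.8 against 1.80, 2.16 and 1.98 CPM (log2 fold change 3.62, SE 0.40, adjusted *P* 0.00647). Both were lowest among mutants in *Smyd1-KO* heart 1, whereas *Ddit4* was highest there, at 607 against 540 and 518 CPM. *Ddit4*, *Stc2*, *Vldlr* and *Sesn2* had log2 fold changes of 2.99, 2.98, 2.53 and 1.42. *Asns* stood at 90.1, 123 and 109 CPM in *Smyd1-KO* and at 59.6, 48.5 and 55.3 CPM in WT hearts (log2 fold change 0.98, SE 0.13, adjusted *P* 0.0120), a larger fold change than that of any synthetase. Its call was lost without WT heart 2 (adjusted *P* 0.078) or 3 (0.067), and those of *Trib3* and *Sesn2* without WT heart 2 (0.0522 each).

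*Atf4* mRNA stood at 171, 220 and 181 CPM in *Smyd1-KO* and at 140, 123 and 118 CPM in WT hearts. edgeR gave a log2 fold change of 0.59 (SE 0.12, adjusted *P* 0.0389), which the fit kept without *Smyd1-KO* heart 1 only (adjusted *P* 0.0590 to 0.165 without any other heart). In a list of 13 ISR kinases, factors and regulators, *Atf4*, *Ddit3* (log2 fold change 1.19, adjusted *P* 0.0326) and *Cebpb* (1.48, adjusted *P* 0.0292) rose (23.1%, beside 2.86% of all genes) and 0 were called lower. DESeq2 called 4 higher and 0 lower, and at an unadjusted *P* under 0.05 edgeR had 4 higher and 2 lower. Of the 3 genes called by edgeR, *Atf4* alone lost its call with the *Xist* class as a covariate (adjusted *P* 0.0650), while *Ddit3* and *Cebpb* were kept without *Smyd1-KO* heart 1 and lost without any other heart (adjusted *P* up to 0.139 and 0.134). *Eif2ak4*, the kinase that senses uncharged tRNA, had a log2 fold change of 0.15 (SE 0.14, adjusted *P* 0.536). *Ddit3* and *Mars* are neighbours on opposite strands of chromosome 10 whose exons overlap by 68 bases, and *Mars* had a log2 fold change of 0.0090 (adjusted *P* 0.954).

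Read against the promoter stretches above, the 5 cytosolic synthetases whose promoters hold the searched element had log2 fold changes of 0.40 (*Iars*), 0.33 (*Gars*), 0.19 (*Yars*), 0.0068 (*Tars*) and -0.04 (*Aars*), and 0 of them were called. Of the called members, *Sars* and *Mars2* had no match, and the promoter of *Cars* was not found by its symbol and not searched. Among the other ATF4 targets, 8 of 20 genes found by symbol had a match (40.0%), among them *Asns*, *Chac1*, *Trib3* and *Vldlr*.

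The lists of translation factors gave the wider setting. In cytosolic translation edgeR called 1 of 21 genes higher (4.76%, beside 2.86% of all genes) and 0 lower. DESeq2 called 2 higher and 0 lower. At an unadjusted *P* under 0.05 edgeR had 5 higher and 5 lower, beside 13.1% and 11.9% of all genes. The gene called by edgeR was *Eef2*, the elongation factor that moves the ribosome along the mRNA. It stood at 5488, 5660 and 4969 CPM in *Smyd1-KO* and 3432, 3295 and 3203 CPM in WT hearts (log2 fold change 0.70, SE 0.10, adjusted *P* 0.0142). The call was lost without *Smyd1-KO* heart 2 (adjusted *P* 0.0786), WT heart 2 (0.0989) or WT heart 3 (0.0880). The median of the list was -0.16, with 6 fold changes positive and 15 negative. Its summed level was 22201, 21529 and 19274 CPM in *Smyd1-KO* and 17247, 15513 and 16223 CPM in WT hearts. All mutant sums were thus above all WT sums, at a ratio of means of 1.29. In mitochondrial translation 0 of 12 genes were called by edgeR or by DESeq2, 4 had an unadjusted *P* under 0.05, and the median was 0.0061.

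**Figure D5:**
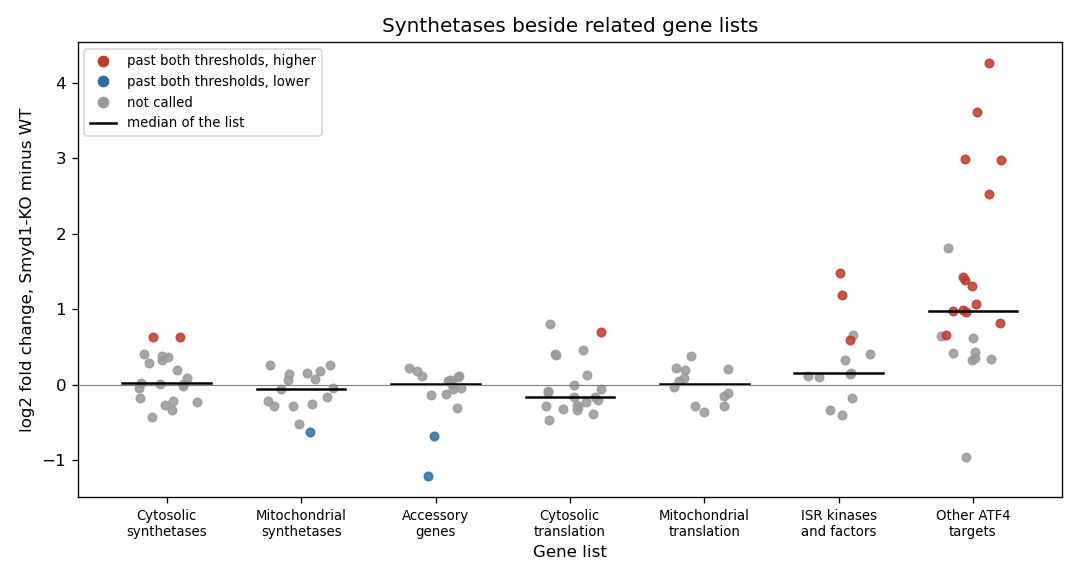
Log2 fold change, *Smyd1-KO* minus WT, of each gene in 7 lists, with red and blue points for genes called higher and lower, grey points for genes not called and a black line at the median of the list. The synthetase medians of 0.018 and -0.054 lie near 0, and the median of the other ATF4 targets lies at 0.98.

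Exons of some members overlap those of other genes, and the strand setting of the counts is not given in the sources used here, so that reads from the shared bases cannot be assigned with certainty. The overlap was largest for *Iars2* (22.9% of its exonic bases, with *Rab3gap2*) and *Aars* (14.3%, with *Exosc6*). It was 3.21% for *Cars*, with an antisense transcript, and 0 bases for *Sars*, *Mars2*, *Qars* and *Wars*.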

How the data were processed

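RNA of 3 *Smyd1-KO* and 3 WT hearts was grouped by the sample labels. The authors selected poly A RNA, aligned reads to mm10 with STAR and deposited raw counts per gene. The counting tool, annotation release and strand setting are not given in the sources used here. A table normalized by the authors was not used.

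The test was edgeR 4.0.16 in R 4.3.3 (filterByExpr, TMM, quasi-likelihood test, Benjamini-Hochberg adjustment over 19372 genes). Calls needed an adjusted *P* below 0.05 and a log2 fold change of 0.5 or more in either direction. Levels are CPM with TMM factors, and intervals are at 95%. Total counts ran from 48627825 to 64217529 per heart. Counting error weighs more for genes with few counts, and it was not set beside the spread between hearts gene by gene. The tests were tried on simulated data.

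The alternatives were DESeq2 1.42.0, RLE or upper-quartile factors, no filter or a filter of 10 counts in every heart, no fold limit, library sizes without mitochondrial and haemoglobin genes, a block on the replicate number, and fits without each heart in turn. The *Xist* class of each heart (above or below 100 CPM) was added after the data had been seen.

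Values in every heart are given for each called member, for *Eprs* and for the members with the largest changes of each class. From the other lists, up to 6 called genes with the largest changes were named, besides genes fixed by name. The members and lists were chosen with earlier results of these data known. Positions and exonic lengths came from GENCODE M21 (GRCm38), promoters from RefSeq (GRCm38.p6). One accessory gene and 1 promoter stretch are not reported here. Tables and plots were made with Python 3.11.15, pandas 2.3.3, scipy 1.17.1 and matplotlib 3.10.9.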

Additional observations from a re-analysis of the deposited data

How the results depend on the processing

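The 2 cytosolic calls and the *Mars2* call were made under RLE and upper-quartile factors, DESeq2, both filters, library sizes without mitochondrial and haemoglobin genes, and the *Xist* covariate. Over the fits that left out 1 heart, the cytosolic genes called higher numbered 0 to 2, the mitochondrial genes called 0 to 1, the accessory genes called 0 to 2, the other ATF4 targets called higher 7 to 15 and all genes called 97 to 1256. The median of the cytosolic genes ran from 0.0030 to 0.058 and that of the mitochondrial genes from -0.10 to 0.022. All genes called numbered 830 in the reported fit and 1747 with DESeq2. Without a limit on the fold change 1 cytosolic gene was lower.

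Same-numbered hearts are different embryos, and the correlations of their deviations from the genotype means were -0.216, -0.0538 and -0.182. These values gave no sign of pairing. With deviations centred on 3 hearts per genotype the correlations depend on each other, so they cannot exclude a litter or batch shared by number. The hearts were treated as unpaired in the reported fit. With the replicate number as a block 59 genes were called (56 higher, 3 lower), among them 0 cytosolic and 0 mitochondrial synthetases, 0 accessory genes and 6 of the other ATF4 targets. The adjusted *P* under the block was 0.0977 for *Cars*, 0.135 for *Sars* and 0.123 for *Mars2*, with fold changes of 0.63, 0.63 and -0.63.

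Over the 36 members and these alternatives, 0 fold changes turned in sign by more than their standard error. The lowest member count was 643, and the number of hearts limits these values.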
